A study of Saccharomyces cerevisiae with 91 samples.

Results

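The histone gene promoters of *Saccharomyces cerevisiae* were described here from a table of nucleosome positions in living cells. The rows were chosen by gene name among 10 histone genes, and 8 of the 10 had a row, namely *HTA1*, *HTB1*, *HTA2*, *HTB2*, *HHT1*, *HHT2*, *HHF2* and *HHO1*. *HHF1* and *HTZ1* had no row under their names in the table used and were not analysed here, except for sequence. The table has 4963 transcripts, of which 4536 are open reading frames (ORFs).

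The study reconstituted nucleosomes on yeast genomic plasmid DNA, remodeled them with INO80 and compared the result with positions in vivo. Its 91 libraries include 1 in vivo library, an MNase-seq experiment on wild-type BY4741 cells grown in YPD to log phase, in which micrococcal nuclease trims chromatin to nucleosomal DNA before sequencing. The dyad, which is the center of the nucleosome, was taken from this library for the +1 nucleosome, the one nearest to the transcription start site (TSS) within a window downstream of it, and for the −1 nucleosome, the next one upstream. The reconstituted libraries were not analysed here. The deposited values are positions without depth or peak height, and with 1 library there is neither a counting error nor a replicate error, so that the values below are a description without a test.

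Yeast keeps its core histone genes as divergent pairs. *HTA1*-*HTB1* and *HTA2*-*HTB2* encode H2A and H2B, and *HHT1*-*HHF1* and *HHT2*-*HHF2* encode H3 and H4. Each pair is transcribed away from a common upstream region and is activated when the genome is replicated. Spt10 binds pairs of short elements in these regions, SBF binds the SCB element and MBF the MCB element, and the HIR complex with Asf1 and Rtt106 represses all pairs except *HTA2*-*HTB2*. *HHO1* encodes the linker histone H1 and *HTZ1* the variant H2A.Z.

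The sequences that the results turn on are the Spt10 elements, because their place relative to the listed nucleosomes differed between the pairs. Nucleosomes that are not listed may lie between these. A match was TTCC, 6 bases of any kind, TTC, any base and C, on either strand. This motif was learned from histone promoters, so that its presence there is no independent finding. The 4 regions between the start codons of the core pairs held 5 matches, which are shown from R64, the build that SacCer3 denotes, each on the strand of its match with the motif in capitals and 7 bases on each side left in lower case.
HTB1-HTA1 Spt10 site, chrIV:915107-915135, plus strand: agcgctgTTCCAAAATTTTCGCctcactg
HTB1-HTA1 Spt10 site, chrIV:915130-915158, minus strand: cactccaTTCCAATAGCTTCGCacagtga
HTA2-HTB2 Spt10 site, chrII:236101-236129, minus strand: taaggtgTTCCCATTATTTCTCaaagtga
HHF1-HHT1 Spt10 site, chrII:255937-255965, minus strand: aaaactgTTCCGAGCGCTTCTCcccataa
HHT2-HHF2 Spt10 site, chrXIV:576339-576367, minus strand: ttgtccgTTCCGAGCACTTCGCattaagc
All 4 core pairs had the motif in the 600 bp around the midpoint between their start codons. So did 4.30% of the 1396 divergent gene pairs of the annotation whose start codons lie up to 1500 bp apart. The median stretch between start codons was 477.5 bp over these pairs. In many of them the window thus reached into coding sequence, which it did not in the core pairs. Over the whole stretch between the start codons the share was 4.08% of all pairs.

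In most divergent histone regions the Spt10 elements were centered outside the nucleosomes that the table lists. A nucleosome core was taken as the dyad and 73 bp on either side. The elements of *HTB1*-*HTA1* were centered 124 and 147 bp from the nearest dyad, the −1 dyad of *HTA1*. The element of *HHT2*-*HHF2* lay 118 bp from the −1 dyad of *HHT2* and 152 bp from that of *HHF2*. The element of *HHF1*-*HHT1* lay 174 bp from the −1 dyad of *HHT1* and 79 bp from the last dyad of SUT444, a stable unannotated transcript between these genes, so that its center lay outside that core and its edge on it. The element of *HTA2*-*HTB2* differed, as it lay 36 bp downstream of the +1 dyad of *HTB2* and therefore within that core. A nucleosome that is neither +1, −1 nor last of a transcript is not listed in the table, so that an element outside the listed cores need not be free of nucleosomes.

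**Figure D1:**
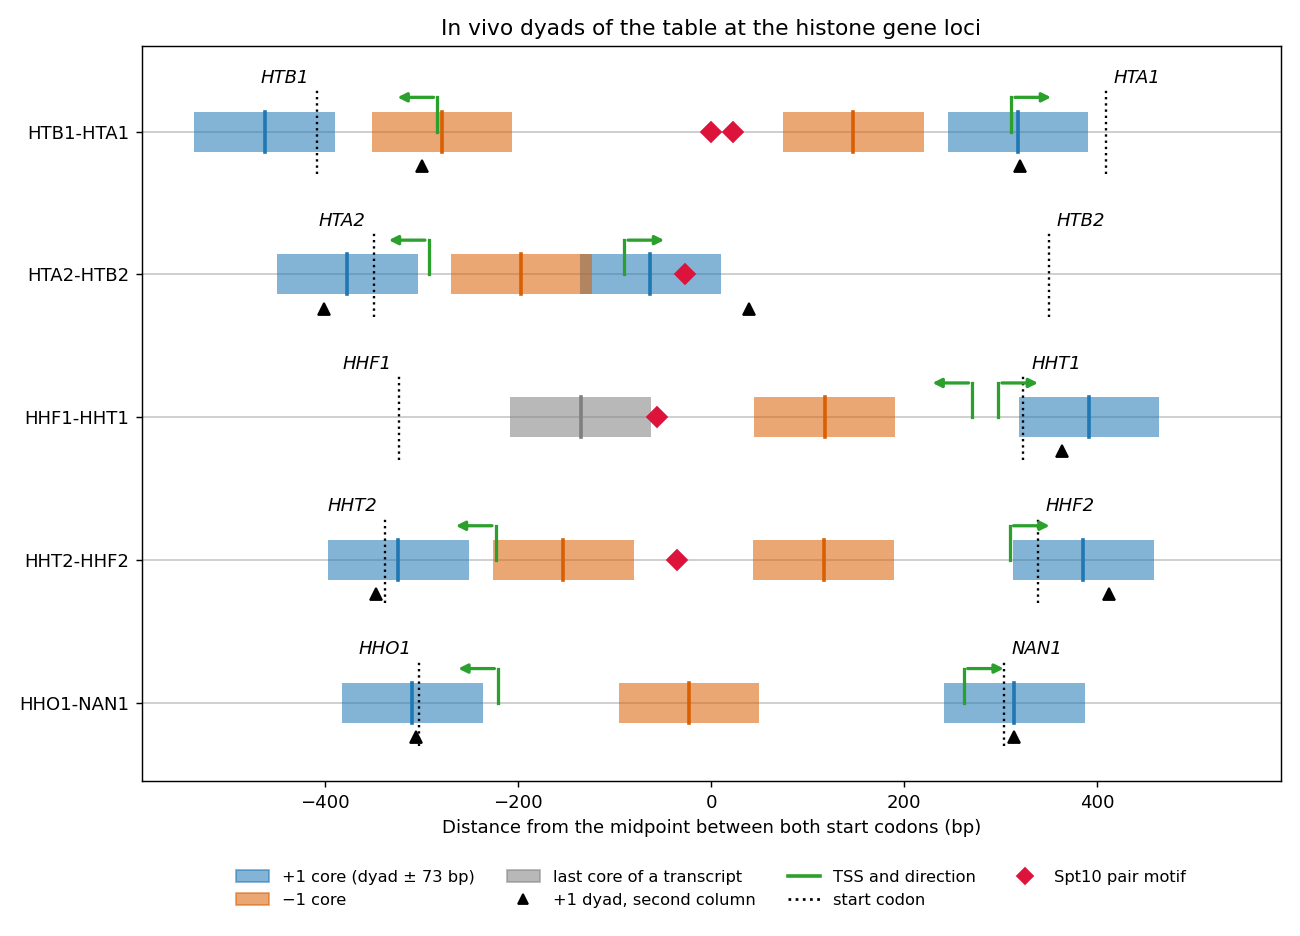
In vivo nucleosomes at the 5 divergent histone gene loci, by distance in bp from the midpoint between both start codons. Boxes are nucleosome cores, black triangles the +1 dyads of the second column, green arrows the TSSs (the leftward arrow at HHF1-HHT1 is that of SUT444), dotted lines the start codons and red diamonds the Spt10 elements. HTB1-HTA1 has 426 bp and HHT2-HHF2 270 bp between the −1 dyads, whereas HTA2 and HTB2 share a −1 dyad and their element falls on the +1 core of HTB2.

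The nucleosome depleted region (NDR), measured from the −1 dyad to the +1 dyad, was short at 5 of 8 histone genes. The NDR was 134 bp at *HTB2*, 171 bp at *HTA1* and *HHT2*, 180 bp at *HTA2* and 184 bp at *HTB1*. It was 269 bp at *HHF2*, 274 bp at *HHT1* and 287 bp at *HHO1*. The 4 H2A and H2B genes and *HHT2* were therefore below the lower quartile of ORFs, and the other 3 genes were in the middle of the distribution. The ORF median was 265 bp with quartiles of 228 and 298 bp, and the histone gene median was 182 bp. Thus 5 of 8 histone genes lay below the lower quartile, where 24.9% of ORFs lie. Measured to another column of +1 dyads in the same table, described below, the NDR of *HTB2* was 236 bp at percentile 33.0. Below the lower quartile of that measure were 4 of 8 genes (*HTA1*, *HTB1*, *HTA2* and *HHT2*), against 24.7% of ORFs. *HTB1* was among them with 21 bp. At that distance its −1 and +1 cores would overlap by 126 bp, so that this value is no depleted region. The same holds for the 134 bp of *HTB2* in the first column, where the cores would overlap by 13 bp. In percentiles, the share of ORFs with a lower value, *HTB2* ranked at 4.56, *HTA1* and *HHT2* at 10.5, *HTA2* at 12.6 and *HTB1* at 13.6. *HHF2* ranked at 53.5, *HHT1* at 57.7 and *HHO1* at 68.3. An NDR so measured leaves out the stretch between distinct −1 dyads of a divergent pair. The widest stretch between neighbouring listed dyads was 426 bp at *HTB1*-*HTA1*, 270 bp at *HHT2*-*HHF2* and 180 bp at *HTA2*-*HTB2*. These ranked at percentiles 80.4, 36.7 and 3.52 of 1008 divergent ORF pairs with TSSs up to 1500 bp apart. The 180 bp at *HTA2*-*HTB2* rest on the first column of +1 dyads. In the other column the +1 dyad of *HTB2* lay 236 bp from the common −1 dyad, and no percentile among pairs was computed for it.

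**Figure D2:**
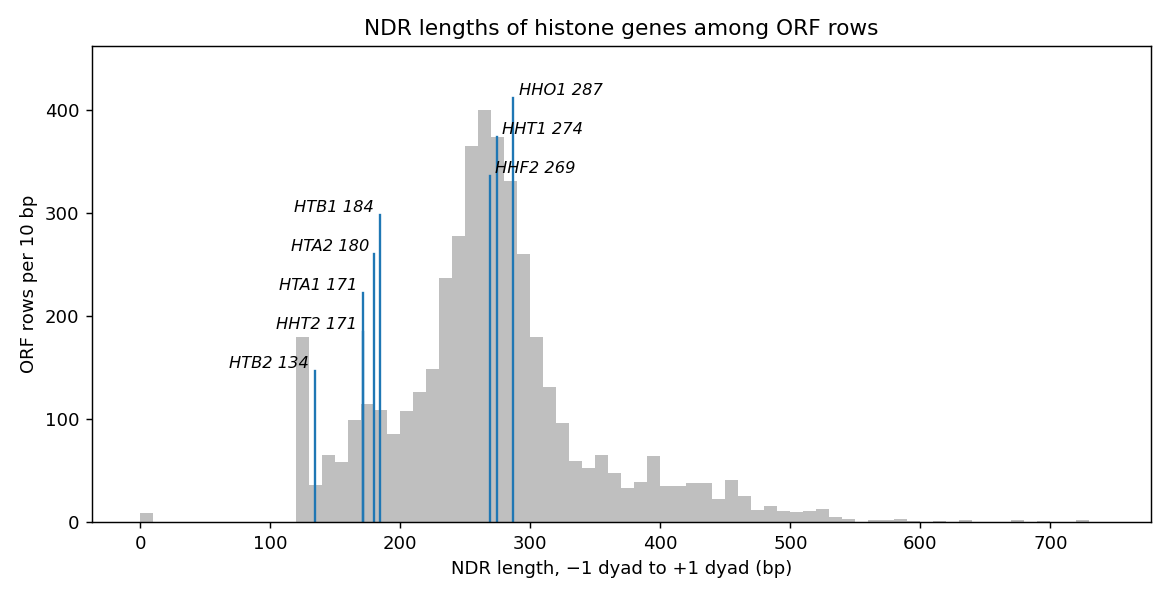
NDR length in bp (x axis) of 4485 ORF rows in bins of 10 bp (y axis, number of rows), with the 8 histone genes as blue lines. HTB2, HTA1, HHT2, HTA2 and HTB1 lie between 134 and 184 bp, left of the main peak, and HHF2, HHT1 and HHO1 lie within it.

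Most +1 dyads of histone genes were also farther from the TSS than usual. The distance was 76 bp at *HHF2*, 84 bp at *HTA2*, 89 bp at *HHO1*, 94 bp at *HHT1*, 101 bp at *HHT2* and 179 bp at *HTB1*, against an ORF median of 54 bp with quartiles of 40 and 72 bp. It was 27 bp at *HTB2* and 7 bp at *HTA1*. Of the 8 genes, 6 lay above the upper quartile, as did 24.5% of ORFs. *HTB1* was the most distant at percentile 96.1 and *HTA1* the closest at 1.42. The −1 dyad lay between 5 and 198 bp upstream of the TSS, with a median of 135.5 bp, against 211 bp over ORFs.

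The table has another column of +1 dyads, whose origin the methods do not state. Of its 4949 positions, 4947 end in the digit 1, as on a grid of 10 bp, whereas 9.81% of the positions in the first column do. The columns differed by more than 20 bp at 6 of 8 histone genes and at 23.8% of ORFs, and by more than 100 bp at *HTB1* and *HTB2*, that is at 2 of 8 against 5.86% of ORFs. At *HTA1* the difference was 2 bp and at *HHO1* 4 bp.

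**Figure D3:**
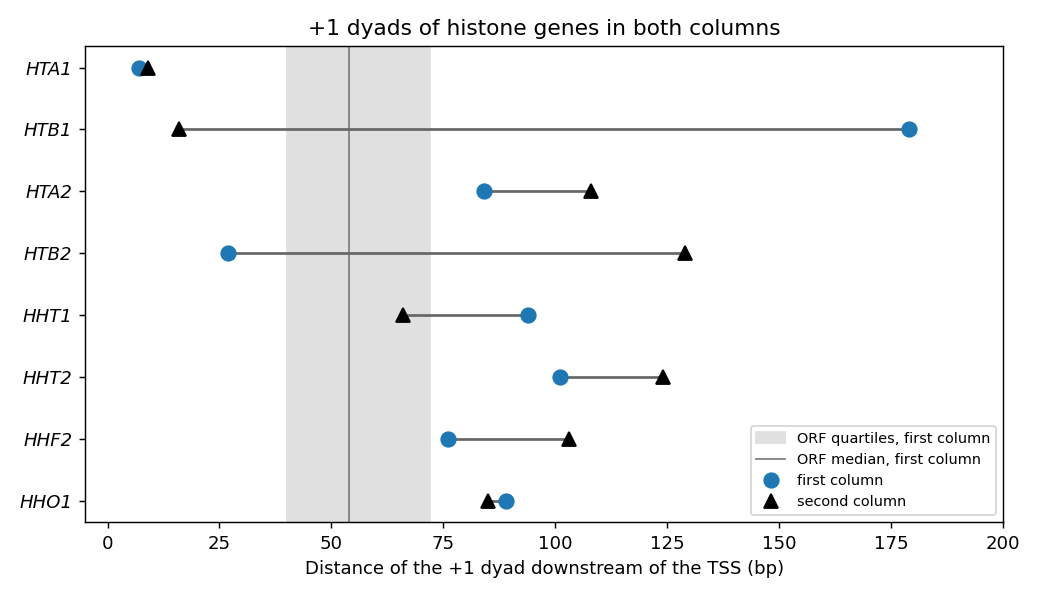
Distance in bp of the +1 dyad downstream of the TSS (x axis) at 8 histone genes in the first column (blue circles) and the second column (black triangles), with ORF quartiles (grey band) and ORF median (grey line) of the first column. HTB1 moves from 179 to 16 bp and HTB2 from 27 to 129 bp, and the symbols of HTA1 nearly coincide.

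The H2A and H2B genes on chromosome IV, *HTB1* (YDR224C, minus strand) and *HTA1* (YDR225W, plus strand), had the widest spacing of the 3 core pairs with both rows. The TSSs at 914837 and 915432 lay 595 bp apart, the +1 dyads at 914658 and 915439 lay 781 bp apart and the −1 dyads at 914842 and 915268 lay 426 bp apart. The +1 to +1 distance ranked at percentile 79.7 of 1015 divergent ORF pairs with TSSs up to 1500 bp apart and both +1 dyads. The −1 dyad of *HTB1* lay 5 bp upstream of its TSS, at percentile 1.17, and was the closest of the 8 genes. Its +1 dyad lay 54 bp downstream of the start codon, between the 47 bp of *HHF2* and the 68 bp of *HHT1*. The second column placed the +1 dyad of *HTB1* at 914821, 16 bp downstream of the TSS and 21 bp from the −1 dyad. Cores at these positions would overlap by 126 bp, and the NDR would shrink from 184 to 21 bp. Whether this −1 dyad and the second-column +1 dyad belong to the same nucleosome was not tested. At *HTA1* both columns placed the +1 dyad on the TSS within 9 bp, and the start codon lay 91 bp downstream of the +1 dyad. The following 300 bases lie between the −1 dyads of this pair, centered between them, and show the Spt10 elements and the SCB matches (CNCGAAA on either strand) in capitals.
HTB1-HTA1, chrIV:914906-915205, plus strand: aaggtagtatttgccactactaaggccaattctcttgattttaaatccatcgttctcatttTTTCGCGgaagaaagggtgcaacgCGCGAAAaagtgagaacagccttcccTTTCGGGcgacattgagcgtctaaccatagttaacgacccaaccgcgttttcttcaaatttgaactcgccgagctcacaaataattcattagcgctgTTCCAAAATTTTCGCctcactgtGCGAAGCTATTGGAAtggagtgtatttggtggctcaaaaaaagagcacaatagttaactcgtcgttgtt
The 3 SCB matches, at 914967, 914991 and 915017, lay on the *HTB1* side of the Spt10 elements, and all 5 matches lay between the −1 cores.

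*HTA2* (YBL003C, minus strand) and *HTB2* (YBL002W, plus strand) on chromosome II had the closest TSSs and +1 dyads of these 3 pairs. The stretch between start codons was not the shortest, with 699 bp against 676 bp at *HHT2*-*HHF2* and 817 bp at *HTB1*-*HTA1*. The TSSs of *HTA2* and *HTB2* at 235849 and 236052 lay 203 bp apart. Their +1 dyads at 235765 and 236079 lay 314 bp apart, at percentile 45.3 of divergent pairs. A common −1 dyad at 235945 lay between them, 180 bp from the +1 dyad of *HTA2* and 134 bp from that of *HTB2*. Of the 3 core pairs with both rows this was the only one with a common −1 dyad, which 18.0% of divergent ORF pairs have. *HTB2* had a leader, the stretch from TSS to start codon, of 440 bp, the only histone gene of 8 above 400 bp, as in 4.15% of ORFs. The leaders of the other genes ranged from 26 bp at *HHT1* to 125 bp at *HTB1*, with an ORF median of 68 bp. The +1 dyad of *HTB2* thus lay 413 bp upstream of the start codon, and the Spt10 element lay 63 bp downstream of the listed TSS. In the second column the +1 dyad of *HTB2* was at 236181, and the element was then 66 bp upstream of the dyad, still within its core. This region had the only MCB match (ACGCGT) of the core pairs, at 236129.

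*HHT2* (YNL031C, minus strand) and *HHF2* (YNL030W, plus strand) on chromosome XIV encode H3 and H4. Their TSSs at 576165 and 576698 lay 533 bp apart and their +1 dyads at 576064 and 576774 lay 710 bp apart, at percentile 76.2. The −1 dyads at 576235 and 576505 lay 270 bp apart. Among the other divergent pairs, *LAC1*-*CAP1* was closest to this geometry, which was also the median of the 3 core pairs, with 531 bp between TSSs and 708 bp between +1 dyads. Together with *HTB1*-*HTA1*, 2 of 3 core pairs had over 250 bp between distinct −1 dyads, against 21.6% of divergent ORF pairs. The −1 dyad was 70 bp from the TSS at *HHT2* and 193 bp at *HHF2*, and the NDR was accordingly 171 bp at *HHT2* and 269 bp at *HHF2*, although the +1 dyads were at 101 and 76 bp from the TSS. The sequence from the *HHT2* −1 dyad to the *HHF2* −1 dyad holds the Spt10 element and a pair of adjoining SCB matches, again in capitals.
HHT2-HHF2, chrXIV:576235-576505, plus strand: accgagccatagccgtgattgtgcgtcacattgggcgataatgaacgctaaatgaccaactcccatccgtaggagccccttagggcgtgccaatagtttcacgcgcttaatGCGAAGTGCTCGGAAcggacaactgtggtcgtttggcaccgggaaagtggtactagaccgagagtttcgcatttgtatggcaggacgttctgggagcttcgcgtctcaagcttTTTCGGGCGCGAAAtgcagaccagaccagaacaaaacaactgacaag
The SCB matches, at 576459 and 576466, lay on the *HHF2* side, within the −1 core of this gene, in contrast to those of *HTB1*-*HTA1*. At 57.5% A and T, the region between the start codons was at percentile 5.69 of divergent regions, whereas those of *HHF1*-*HHT1* (62.5%), *HTB1*-*HTA1* (63.2%) and *HTA2*-*HTB2* (66.5%) were at percentiles 34.4, 40.2 and 78.4.

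*HHT1* (YBR010W, chromosome II, plus strand) encodes H3 and shares its upstream region with *HHF1*. Its TSS was at 256305, its +1 dyad at 256399 and its −1 dyad at 256125. SUT444 is transcribed in the other direction from 256278, and its +1 dyad is the −1 dyad of *HHT1* while its −1 dyad is the +1 dyad of *HHT1*. The last dyad of SUT444 at 255872 lay 253 bp farther to the *HHF1* side. Since *HHF1* was without a row, the nearest divergent ORF in the table was *FLR1*, 1107 bp away between TSSs, and its −1 dyad at 255422 lay within the *HHF1* coding sequence (255373 to 255684).

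*HHO1* (YPL127C, chromosome XVI, minus strand) had a TSS at 309686, a +1 dyad at 309597, 7 bp downstream of the start codon, and a −1 dyad at 309884. This −1 dyad was also that of *NAN1*, its divergent neighbour, and lay 287 bp from the *HHO1* +1 dyad and 337 bp from that of *NAN1*. The NDR of *HHO1* held an SCB match, 96 bp upstream of the TSS. The share of ORFs with an SCB match in the NDR is not given here, so that the match is no trait of this gene.

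With the first column of +1 dyads, 0 of 8 genes had a match of the Spt10 motif between the −1 and +1 dyads, as against 1.59% of ORFs with one. With the second column 1 of 8 genes had a match, *HTB2*, against 1.63% of ORFs. Within 400 bp upstream of the +1 dyad a match was found at 3 of 8 genes, *HTA1*, *HTA2* and *HHT2*, against 2.47% of ORFs. In the 600 bp around the midpoint between start codons SCB matches were in 2 of 4 core pairs (background 25.6%) and the MCB match in 1 of 4 (6.66%). TATAAA was in 3 of 4 (57.2%) and TTACCC, the core of the Reb1 site, in 1 of 4 (29.8%). The background windows often included coding sequence, as described above, so that these shares are not from like regions. Reb1 is a general regulatory factor of promoters. Matches of TATAAA lay on both sides of the TSSs. They were centered 79.5 and 33.5 bp upstream and 14.5 bp downstream of the TSS of *HHT1*, and 71.5 bp upstream and 87.5 and 94.5 bp downstream of that of *HTA1*. A match lay 9.5 bp upstream of the TSS of *HTB1*, those at *HHT2* lay 3.5 and 27.5 bp downstream, and *HTA2*-*HTB2* had none. A match is a description of sequence and not a measured binding site.

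DNA rigidity, which the study used as a measure of how flexible DNA is and which was computed here as the length of the longest run of A followed by T around each position, varied between members. Its mean over 21 bp centered 100 bp upstream of the +1 dyad ranged from 0.81 at *HTA1* (percentile 6.23) to 2.71 at *HTB1* (percentile 75.7). The median there was 2.02, against 1.90 over ORFs. Centered 55 bp upstream, the score ranged from 0.76 at *HTB1* (percentile 11.2) to 2.90 at *HHF2* (percentile 93.9). The median at this place was 1.07, against 1.43 over ORFs. Runs of at least 6 A or T bases were present in the NDRs of *HHF2* (18 bases), *HHO1* (12), *HTA1* (6) and *HTA2* (6), and in none of the other 4. Of ORFs, 31.9% had no such run, with a median of 7 bases against 3 bases over the histone genes. These counts were not adjusted for the length of the NDR, which was shorter at most histone genes. As a share of the bases between start codons, such runs ranked at percentile 45.8 at *HTA2*-*HTB2* and 45.2 at *HHT2*-*HHF2*. They ranked at 39.6 at *HTB1*-*HTA1* and 31.9 at *HHF1*-*HHT1*, among divergent regions.

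Histone genes are short, and so were their nucleosome arrays. The distance from the +1 to the last dyad was 215 bp at *HHF2*, 272 bp at *HHT1* and 293 bp at *HTB1*, so that 3 of 8 genes were below 300 bp, as were 0.553% of ORFs and 1.91% of the 1308 ORFs with transcripts no longer than that of *HHO1* (1153 bp). The other 5 genes ranged from 503 bp at *HTA1* to 970 bp at *HHO1*. *HHF2*, *HHT1* and *HTB1* also had the shortest transcripts of the 8, with 513, 593 and 633 bp. These lengths ranked at percentiles 0.198, 2.40 and 3.73 of ORFs. No background limited to transcripts this short was made, so that short arrays cannot be told apart from short transcripts.

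The methods state for the sequencing data of the study that reads with multiple matches were omitted, and several histone gene copies share long identical stretches. Coding sequences were identical at 97.4% of bases between *HHF1* and *HHF2*, 93.7% between *HTA1* and *HTA2*, 93.2% between *HHT1* and *HHT2* and 87.9% between *HTB1* and *HTB2*, with the longest identical run of 80 bases in *HHF1* and *HHF2* and of 35 bases in *HTB1* and *HTB2*. Of reads of 36 bases lying fully within the +1 core, 66.1% at *HHT1*, 72.3% at *HTA2* and 92.0% at *HHF2* would occur once in the genome, and 100% at the other 5 genes. The 2 of 8 below 90% compare with 0.398% of ORFs. All −1 cores were at 100%. With reads of 50 bases the lowest value was 75.5%, at *HHT1*. *HTB1* and *HTB2*, where the +1 columns differed most, were at 100% in both columns. The read length of the in vivo library is not given in the sources used here, and the part of unplaced reads in the positions of *HHT1*, *HTA2* and *HHF2* was not tested. Dyads were derived from read ends shifted by 73 bp, and the reads at the core edges were not examined separately.

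**Figure D4:**
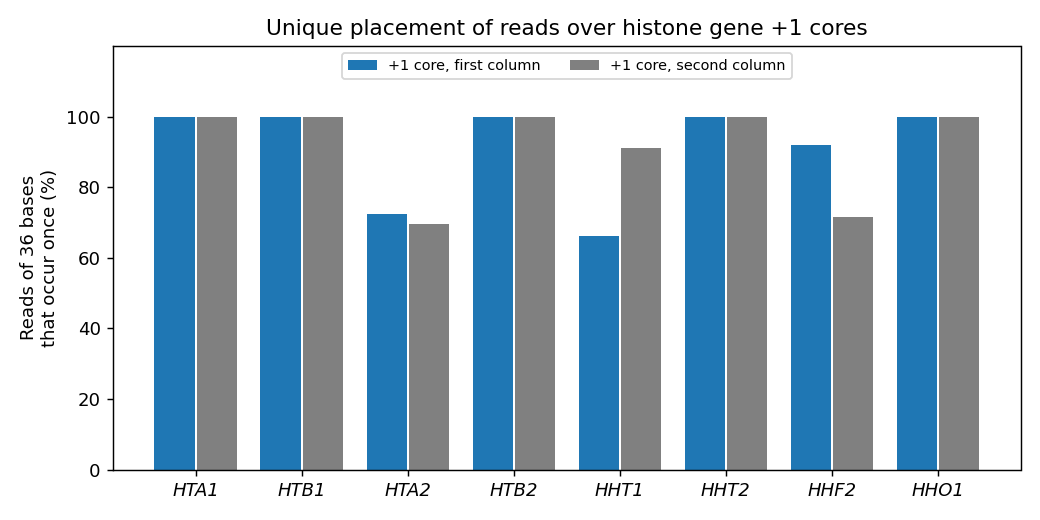
Share in percent of reads of 36 bases lying fully within the +1 core that occur once in the genome, at 8 histone genes, for the +1 dyad of the first column (blue) and the second column (grey). HTA2, HHT1 and HHF2 are below 100% in both columns, with the lowest value of 66.1% at HHT1.

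The study cut its DNA library with restriction enzymes to set DNA ends. BamHI cuts lay within 500 bp of the +1 dyad at 2 of 8 genes, 4 bp upstream at *HHT2* and 183 bp downstream at *HHO1*, against 12.1% of ORFs. EcoRV cuts lay 161 bp downstream at *HTB1*, 304 bp at *HHT1* and 385 bp at *HHT2*, thus at 3 of 8 genes against 26.5% of ORFs. A KpnI cut lay 204 bp upstream at *HHT1*, at 1 of 8 genes against 13.6% of ORFs. No listed cut lay between the start codons of *HTB1*-*HTA1* or *HTA2*-*HTB2*.

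The genes for factors that act on histone genes or assemble histones, together with *CSE4*, which encodes another histone variant, served as a list apart from the histone genes chosen above. Of the 20 genes of this list, 17 had a row, and their median NDR was 270 bp. The lower quartile of ORFs was undercut by 4 of these 17, a share close to the 24.9% of ORFs below it, namely by *SPT21* (174 bp), which encodes a partner of Spt10, *SWI4* (180 bp), the DNA-binding subunit of SBF, *MSI1* (205 bp), a subunit of the assembly factor CAF-1, and *HIR3* (211 bp), a subunit of HIR.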

How the data were processed

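The histone genes and the gene lists were chosen with earlier results of these data known. According to the methods of the study, the authors mapped 1 in vivo library to SacCer3 with Bowtie, shifted read ends by 73 bp to the dyad, smoothed the density and called peaks one after another. The deposited values are coordinates and lengths in bp, and so are the 3 deposited lists of restriction cuts. The smoothing and the exclusion of neighbouring peaks set a lower bound on the spacing of dyads. The omission of multiple matches is stated for the sequencing data in general. Of all rows with an NDR length, 4903 of 4903 equal the distance from the −1 dyad to the first column of +1 dyads, which was therefore used. All listed cuts lay on their recognition sequences in R64 (1662 BamHI, 4221 EcoRV and 1904 KpnI sites). Distances were computed along transcription with Python 3.11.15, numpy 2.4.6 and pandas 2.3.3, and percentiles count ORFs below plus a share for ties. Start codons came from the RefSeq annotation of R64 and matched 4412 of 4536 ORFs. Every match of a motif on either strand was counted. The scripts were tested on simulated data. No test was made, since 1 library gives no error. All 8 histone genes with a row were named. Alternatives were the other +1 column, all transcripts as background, each pair counted once, core genes only, other windows and motifs, shorter runs and longer reads.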

Additional observations from a re-analysis of the deposited data

How the results depend on the processing

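No paired analysis was possible because the results come from positions of 1 library and from no test. A value was called moved when it changed by over 10 bp, by over 10 percentile or percentage points or by over 1.5 times (rigidity, over 0.5). Of 44 alternatives for 32 results, 24 moved the value, and 10 of the alternatives, including those that leave out *HTB1* or *HTB2* (median NDR 180 and 184 bp), were chosen after seeing the data. With the second +1 column the median NDR of the histone genes rose from 182 to 220 bp, its median percentile from 13.1 to 26.2, and the median +1 to +1 distance of the core pairs went from 710 to 620 bp. The number of histone genes below the lower quartile was 5 and then 4. The 5 include *HTB2* at 134 bp, where its cores would overlap by 13 bp. The 4 include *HTB1* at 21 bp, where its cores would overlap by 126 bp. This value also enters the second-column median of 220 bp. The number of genes with a match in the NDR went from 0 to 1 for Spt10 and from 0 to 1 for MCB. With each pair counted once the median NDR was 220 bp. Against all neighbouring divergent ORF pairs the percentile of the +1 to +1 distance went from 76.2 to 63.0. In 400 bp upstream of the +1 dyad instead of the NDR, the number of genes with a match went from 0 to 3 for Spt10, from 1 to 3 for SCB, from 0 to 1 for MCB and from 0 to 1 for Reb1. With runs of at least 5 bases the median poly(dA) or poly(dT) content of the NDRs went from 3 to 8.5 bases. The cause of these changes was not tested. The count of core pair regions with an Spt10 element was 4 in the whole region and 4 without the last 2 letters of the motif. Depth is unknown, so no limit from it can be given.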
